A study of Mus musculus with 9 samples.

Results

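RNA of cells sorted as Siglec-F intermediate eosinophils from metastatic mouse lung was compared with RNA of cells sorted as eosinophils from the lungs of control mice. All mice were of the C57BL/6 strain. The metastatic lungs came from mice given PyMT tumour cells in 200 µl of saline by the tail vein, and the control mice received saline alone by the same route. PyMT names the polyoma middle T antigen, an oncogene that drives mammary tumours in mice, and cells given by the tail vein lodge in the lung. The 3 libraries labelled Siglec-F int and the 3 labelled naive were taken by their labels from the 9 libraries of the series. Another 3 libraries, labelled Siglec-F high and sorted from metastatic lungs, served in the estimate of spread, in 1 comparison with the Siglec-F int libraries and beside Il1rl1. Each library pooled sorted cells of 3 to 4 mice, with a stated purity above 98% by cytospin, and the age and sex of the mice are not given in the sources used here. With 3 pooled libraries a group, the p-values measure the spread between these libraries. Of 54449 genes in the deposited table, 13492 had a mean of at least 5 normalized counts over the 6 libraries and were tested.

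Eosinophils are granulocytes that mature under interleukin 5, store cationic proteins such as the peroxidase Epx and the major basic protein Prg2, and in mice carry the lectin Siglec-F. Lung eosinophils of resting mice carry an intermediate level of Siglec-F, and a high level is known from allergic inflammation. In tissue they respond to epithelial alarmins such as interleukin 33 through its receptor ST2, to interferons and to the cytokines of the common beta chain, and they release chemokines and growth factors. Metastatic lung also holds monocytes, macrophages, fibroblasts and tumour cells, whose transcripts reach a bulk library whenever a sort is not pure. In such libraries fewer cells of a type and less RNA per cell cannot be told apart.

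The naive libraries held 4453385, 2205949 and 5529406 reads and the Siglec-F int libraries 7517513, 11566723 and 12495639, so depth moved with the group. Defining eosinophil markers were scarce in both groups. Siglecf had 12.6, 31.3 and 4.18 in the naive libraries and 6.98, 20.2 and 11.1 in the Siglec-F int libraries. Ccr3, the eotaxin receptor, and Epx were under the minimum for testing, and Ccr3 was at 0 in all 3 naive libraries. The 15 eosinophil markers took 0.0112, 0.0144 and 0.0113% of the naive reads and 0.107, 0.0657 and 0.101% of the Siglec-F int reads, with 4 to 7 of them at 0 in a naive library and 1 to 3 in a Siglec-F int library. Most of that rise was Il1rl1, and without it the shares were 0.0104, 0.0113 and 0.00982% against 0.0137, 0.0282 and 0.0238% (exact permutation p = 0.1, two-sided, the smallest that 3 against 3 allows). The data thus do not show the labelled cell type by its defining markers, and the libraries are called here by their labels.

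Other marker lists moved with the groups. The 14 pigment cell markers, none of them at 0 in a naive library, took 1.30, 1.18 and 1.61% of the naive reads and 0.011, 0.0091 and 0.0198% of the Siglec-F int reads. The 17 markers of monocytes and interstitial macrophages, none at 0 in any of the 6 libraries, took 0.387, 0.377 and 0.353% and 0.865, 2.58 and 1.1%. Library 2 of the Siglec-F int group stood apart with the highest share of that list and, at 0.217%, the lowest share of the 16 fibroblast markers, against 0.639 and 0.554% in libraries 1 and 3 and 0.189, 0.16 and 0.212% in the naive libraries. In the plot of shares the same library also led the dendritic cell list, which took 0.0225, 0.0421 and 0.0196% of the Siglec-F int reads and 0.00449, 0.0147 and 0.0072% of the naive reads. Exact permutation tests of these 4 shares gave p = 0.1, the smallest possible. The T and NK cell list took a higher share of reads in every Siglec-F int library than in any naive library. The epithelial, endothelial, neutrophil and B cell lists took a lower share. Of the 14 markers of mammary tumour epithelium, 4 to 7 were at 0 in a library. Their share was also higher in every Siglec-F int library, at 0.00498, 0.00428 and 0.00501% against 0.00357, 0.00385 and 0.00391% (exact permutation p = 0.1). The summed normalized counts of these markers overlapped, at 182.3, 221.4 and 180.4 in the naive and 200.8, 208.5 and 198 in the Siglec-F int libraries. Those of the T and NK cell list overlapped too, at 349.8, 479.4 and 274.8 against 527.2, 445.8 and 408.

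**Figure D1:**
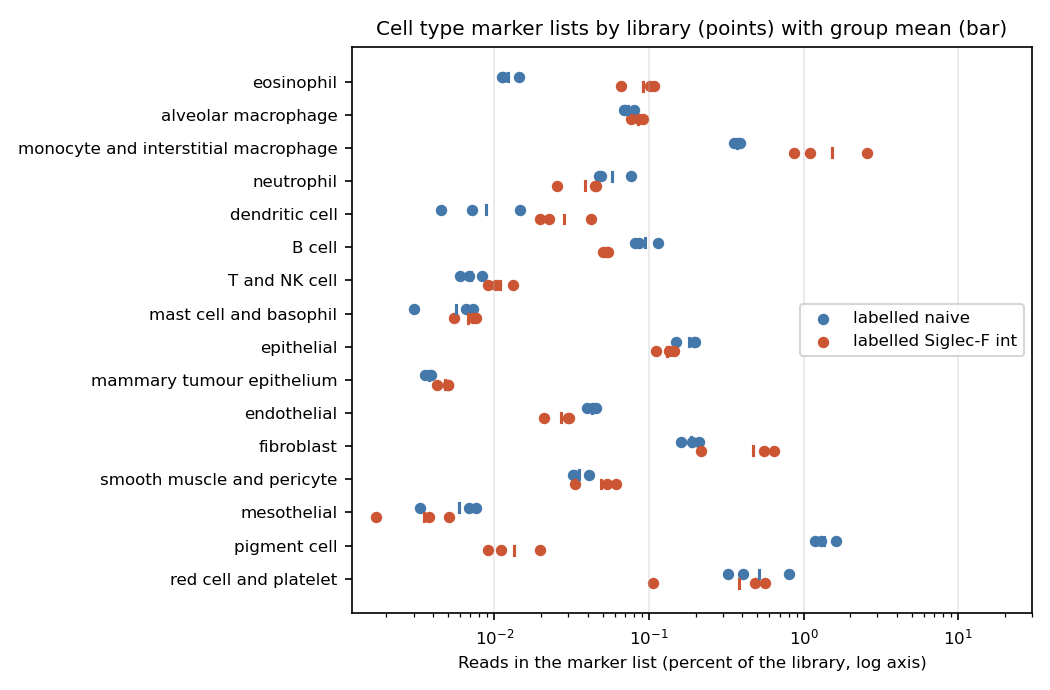
Share of each library's reads in 16 cell type marker lists, on a logarithmic percent axis. Each point is 1 library and each bar the mean of 3; the pigment cell list lies above 1% in the naive libraries and below 0.02% in the Siglec-F int libraries, and the monocyte list is highest in Siglec-F int library 2.

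Of the 13492 genes tested, 1636 (12.1%) were called higher and 1445 (10.7%) lower in the Siglec-F int libraries. A call is an adjusted p under 0.05 from limma on log2(normalized count + 1), adjusted by Benjamini-Hochberg over all genes tested, and fold changes below are log2 values on that scale with their standard error (SE). The median fold change of all genes tested was -0.07, and 1006 of the genes called higher and 701 of those called lower changed more than 4-fold. Scaling moved the balance: 53.1% of the calls were higher with the deposited scaling, 68.3% with equal totals, 63.3% with TMM factors and 63.4% with edgeR on whole reads. Equal totals shifted the median of all genes by 0.253, TMM factors by 0.176 and edgeR by 0.106 toward higher values. With any 1 library left out, 765 to 1360 genes were called higher and 667 to 1041 lower, the fewest without Siglec-F int library 1 or 3, and for the lower genes also fewer by over 1.5 times without naive library 1 or 3. No gene was called between the Siglec-F int and the Siglec-F high libraries by limma, edgeR or DESeq2, and 612 had an unadjusted limma p under 0.05. These tests took no account of replicate numbers, and a pairing of Siglec-F int with Siglec-F high libraries was not checked. The absence of calls does not show that the groups are alike. The lists below are given by counts over their tested members, to be read against 12.1% and 10.7%, and every gene named as called kept its direction under all alternatives. For each called gene whose value is given in every library, the 3 Siglec-F int libraries lay all above or all below the 3 naive libraries. The largest rises and falls were chosen for such a gap, and its share among all genes tested is not given here. Of the marker lists, 10 of 17 monocyte markers were called higher and 13 of 14 pigment cell markers lower, and none of the 5 tested markers of mammary tumour epithelium was called. The summed B cell share was lower, but of the 11 B cell markers tested 1 was called lower and 10 were not called. The median log2 fold change of those 11 markers was 0.07. In the other lists with a lower share, few tested markers were called. Of 16 epithelial markers 1 was lower and 1 higher, of 14 endothelial markers 2 were lower, and of 10 neutrophil markers 1 was lower. Their median log2 fold changes were -0.83, -0.73 and -0.73. Of the 15 fibroblast markers tested, 4 were called higher (Col3a1, Dcn, Pdgfra and Pdgfrb) and 1 lower (Inmt), and their median log2 fold change was 0.12. Inmt lost its call once any 1 library was left out, Col3a1 without Siglec-F int library 1 or 3 or naive library 2, and Pdgfrb without Siglec-F int library 1 or 3.

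**Figure D2:**
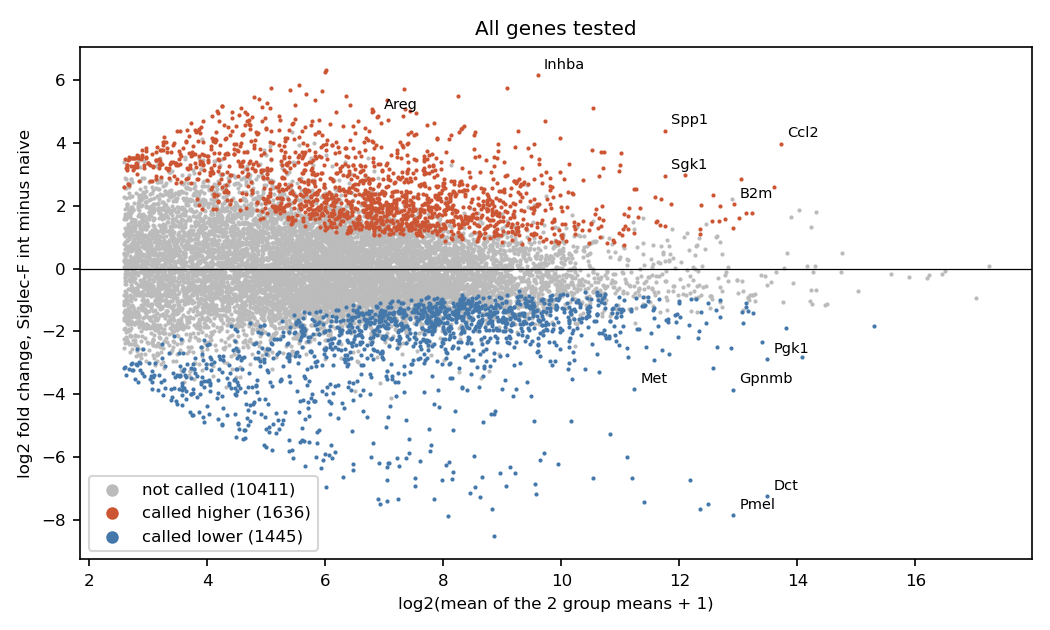
Log2 fold change (Siglec-F int minus naive) of the 13492 genes tested against the log2 of their mean level. Red points are the 1636 genes called higher, blue points the 1445 called lower and grey points those not called; Inhba, Spp1 and Ccl2 lie high above 0 at well measured levels, and Pmel and Dct lie lowest among the labelled genes.

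**Figure D3:**
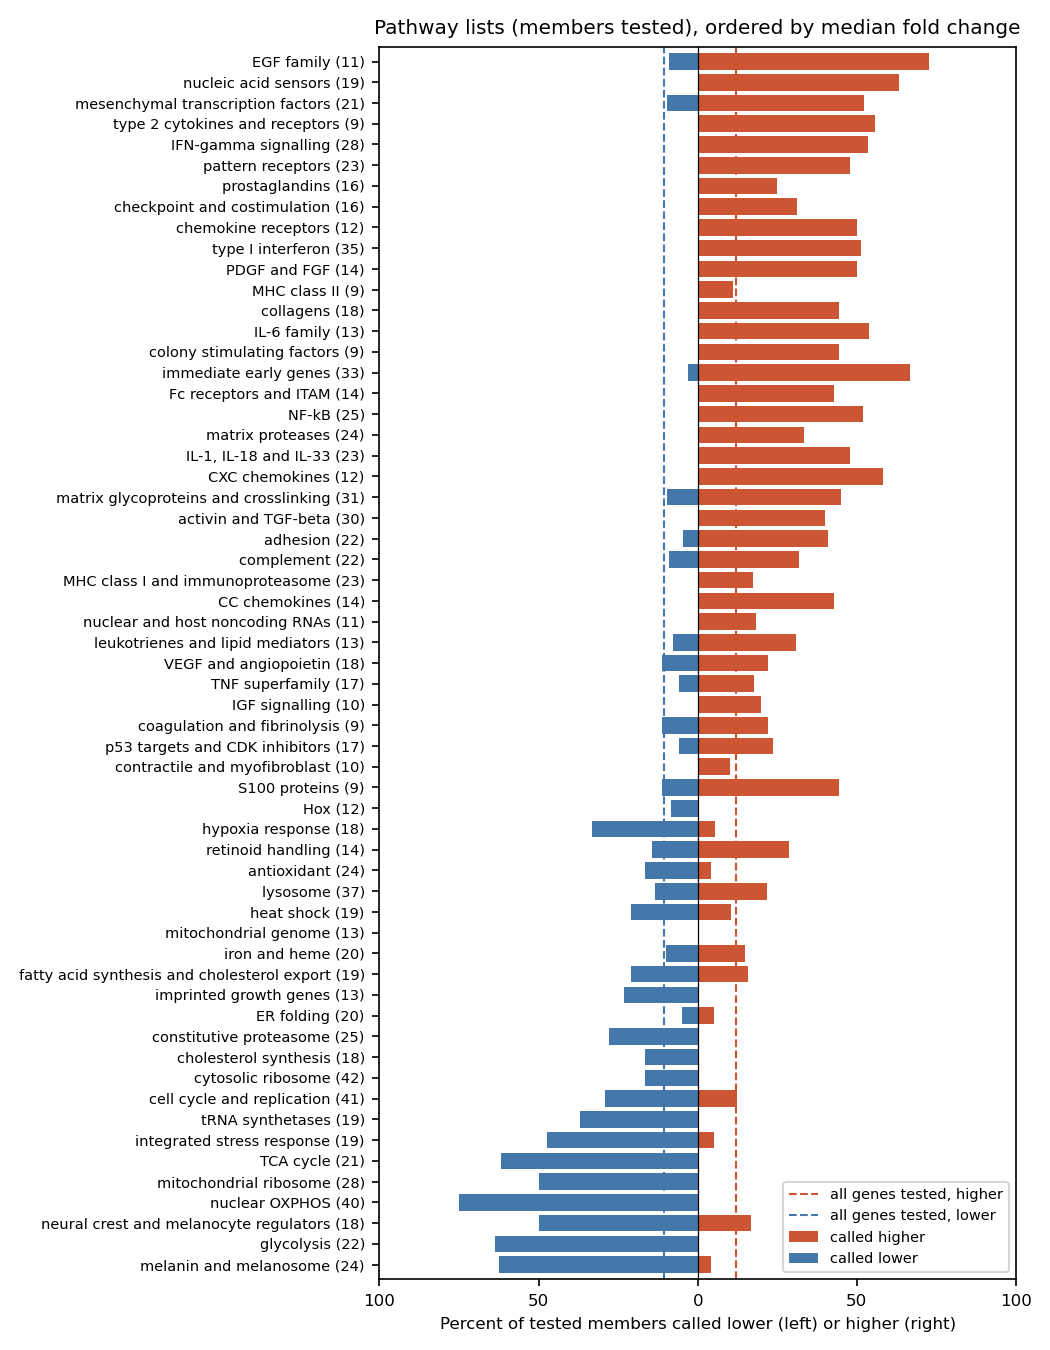
Percent of the tested members of each pathway list with at least 9 members tested that were called higher (red, to the right) or lower (blue, to the left), ordered by the list's median fold change. Dashed lines mark 12.1% and 10.7%, the shares among all genes tested; EGF family, nucleic acid sensor and immediate early genes reach farthest to the right, and oxidative phosphorylation, glycolysis and melanin genes farthest to the left.

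Ligands of the EGF receptor rose. Areg (ENSMUSG00000029378.5, chr5:91139599-91148432), which codes for amphiregulin, a growth factor that immune cells release on tissue damage, had 1.15, 18.2 and 10.0 in the naive libraries and 220.1, 204 and 249 in the Siglec-F int libraries. All 3 Siglec-F int libraries lay far above all 3 naive libraries (log2 fold change 4.87 ± 0.70, adjusted p = 0.00146). Epiregulin, Ereg, had 5.73, 46.9 and 1.67 in the naive libraries and 240.0, 86.8 and 229.6 in the Siglec-F int libraries. The groups did not overlap, although naive library 2 stood above the other two (4.16 ± 0.93, adjusted p = 0.0108). Hbegf, the heparin-binding ligand, had 39.0, 28.7 and 18.4 in the naive libraries and 253, 113 and 302 in the Siglec-F int libraries, again with no overlap and with Siglec-F int library 2 the lowest of its group, as for the other EGF ligands here (2.86 ± 0.46, adjusted p = 0.00249). The sheddase Adam17, which frees such ligands from the membrane, rose by 1.82 ± 0.38 (adjusted p = 0.00813). Feedback inhibitors of the receptors rose as well: Errfi1, which binds and blocks the kinase, had 102, 112 and 95.2 in the naive libraries and 1695, 704 and 1576 in the Siglec-F int libraries (3.57 ± 0.34, adjusted p = 0.000315). Lrig1 rose by 3.58 ± 0.64 (adjusted p = 0.00405). Of the receptors, Erbb3, the kinase-impaired partner that binds neuregulins, had 1.07, 4.21 and 2.85 in the Siglec-F int libraries and 81.4, 91.2 and 116 in the naive libraries and fell by 4.80 ± 0.79 (adjusted p = 0.00268). Erbb2 had 24.1, 15.6 and 15 in the naive libraries and 10.2, 3.37 and 11.4 in the Siglec-F int libraries and was not called. In all 8 of 11 members tested were called higher and 1 lower, and higher calls numbered 6 to 7 with any 1 library left out.

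Inhba, the beta A subunit of activins, which are TGF-beta family ligands that activate SMAD2 and SMAD3, had the largest fold change of the TGF-beta family list (ENSMUSG00000041324.14, chr13:16011851-16031621). Its normalized counts were 13.8, 36.5 and 14.2 in the naive libraries and 1698, 949.6 and 1936 in the Siglec-F int libraries, and even the lowest of them, library 2, stood far above the naive libraries (6.17 ± 0.42, adjusted p = 0.000116). Follistatin, Fst, which binds and neutralizes activin, had 3.44, 0 and 2.51 in the naive libraries and 32.2, 25.3 and 73.7 in the Siglec-F int libraries (4.01 ± 0.77, adjusted p = 0.00548). Bmp2, a ligand of the other SMAD branch, had 19.5, 125 and 5.01 in the naive libraries and 709.7, 308 and 716 in the Siglec-F int libraries. The naive libraries spread widely without reaching the Siglec-F int values (4.44 ± 0.90, adjusted p = 0.00683). The BMP antagonist Grem1 rose by 3.57 ± 0.79 (adjusted p = 0.0101). Ltbp1, which holds latent TGF-beta in the matrix, had 37.9, 104 and 41.8 in the naive libraries and 956, 385 and 798 in the Siglec-F int libraries (3.57 ± 0.46, adjusted p = 0.000897). Among genes that TGF-beta signalling induces and that restrain it, Smad7 rose by 2.52 ± 0.42 (adjusted p = 0.00281) and Skil by 2.77 ± 0.56 (adjusted p = 0.007). The ligand Tgfb1 itself had 147, 289 and 153 in the naive libraries and 124, 231 and 129 in the Siglec-F int libraries and was not called. Of the 30 members tested 12 were called higher and none lower, with 8 to 12 with any 1 library left out.

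PDGF and FGF genes rose in part, with 7 of 14 called higher and none lower (4 without Siglec-F int library 3 and 5 to 8 without 1 of the others). Pdgfa, a mitogen of mesenchymal cells, had 162, 117 and 106 in the naive libraries and 557, 547 and 658 in the Siglec-F int libraries (2.20 ± 0.31, adjusted p = 0.00135). Pdgfc, another ligand of the same receptor, had 2 reads over all naive libraries and 431 over the Siglec-F int libraries, a depth-adjusted read ratio of 71.5 (95% interval 19.7 to 592). Here and below, intervals of read ratios and folds against a floor reflect counting error alone and not the spread between libraries. Genes with few or no naive reads passed the minimum for testing only through the Siglec-F int libraries. They could hardly be called lower, and they count among the higher calls of their lists. Genes all but absent from the Siglec-F int libraries likewise passed only through the naive ones. The receptor Pdgfra had 73.4, 107 and 128 in the naive libraries and 676, 303 and 685 in the Siglec-F int libraries, with the lowest of the latter in library 2 (2.37 ± 0.41, adjusted p = 0.00346). Fgfr1 rose by 3.20 ± 0.35 (adjusted p = 0.000503). Igf1r, the receptor of insulin-like growth factor 1, by 2.35 ± 0.44 (adjusted p = 0.00506). Hepatocyte growth factor and its receptor went opposite ways. Hgf had no read in the naive libraries and 117 in the Siglec-F int libraries, at least 12.9-fold higher when set against a floor of 3 reads over the naive group. Met, the receptor, had 2849, 3749 and 6919 in the naive libraries and 344, 203 and 354 in the Siglec-F int libraries and fell by 3.84 ± 0.49 (adjusted p = 0.000895). The pigment marker share was 1.3, 1.18 and 1.61% in the naive and 0.011, 0.0091 and 0.0198% in the Siglec-F int libraries. Its part in the falls of Met and Erbb3 was not tested. Vegfa had 485, 354 and 487 in the naive libraries and 658, 860.3 and 787 in the Siglec-F int libraries and was not called. Pdgfra is also in the fibroblast marker list. The share of that list was 0.639, 0.217 and 0.554% in the Siglec-F int and 0.189, 0.16 and 0.212% in the naive libraries. The part of that share in the EGF, activin and PDGF genes that rose was not tested.

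The interleukin 33 axis rose at both ends. Il33, the alarmin released by damaged barrier cells, had 3.44, 10.4 and 14.2 in the naive libraries and 332, 139 and 298 in the Siglec-F int libraries, with the groups apart and Siglec-F int library 2 the lowest of its group (4.72 ± 0.52, adjusted p = 0.000517). Il1rl1, which codes for its receptor ST2, had 40.1, 177 and 66.8 in the naive libraries and 3783, 1825 and 3038 in the Siglec-F int libraries (5.12 ± 0.52, adjusted p = 0.000413). The Siglec-F high libraries had 6981, 3195 and 3779 for Il1rl1. Il1rap, the shared coreceptor, was called at 3.84 ± 1.24 (adjusted p = 0.0469), and the call was lost without Siglec-F int library 1, 2 or 3 or naive library 1 (adjusted p = 0.116, 0.0943, 0.135 and 0.0514). Il18rap, the accessory chain of the interleukin 18 receptor, had 17.2, 20.8 and 15 in the naive libraries and 351, 182 and 352 in the Siglec-F int libraries (3.94 ± 0.38, adjusted p = 0.000347). The binding chain Il18r1 had 9.17, 0 and 10.0 in the naive libraries and 25.2, 14.3 and 18.4 in the Siglec-F int libraries and was not called. Of the ligands, Il1a had 32.1, 162 and 83.5 in the naive libraries and 375, 1296 and 828 in the Siglec-F int libraries, highest in library 2 (3.27 ± 0.68, adjusted p = 0.00767). Il18 had 36.7, 65.1 and 51.8 in the naive libraries and 48.3, 81.3 and 54.1 in the Siglec-F int libraries without a call. The inflammasome genes Casp1, the protease that matures interleukins 1 beta and 18, and Nlrp3 rose by 3.54 ± 0.43 (adjusted p = 0.000766) and 1.81 ± 0.39 (adjusted p = 0.00849). In this list 11 of 23 were called higher and none lower, with 6 without Siglec-F int library 2 or naive library 1, 7 without Siglec-F int library 3 and 8 to 10 without 1 of the others. The fibroblast marker share was also higher, at 0.639, 0.217 and 0.554% against 0.189, 0.16 and 0.212% in the naive libraries. Its part in the genes of this list that rose was not tested.

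Cytokines that signal through gp130 rose with the receptor chain for interleukin 6. Il6 had 18.4, 23.4 and 10.0 in the naive libraries and 151, 225 and 110.4 in the Siglec-F int libraries (3.17 ± 0.54, adjusted p = 0.00303). Lif, leukaemia inhibitory factor, had 43.6, 62.5 and 33.4 in the naive libraries and 745, 310.1 and 504 in the Siglec-F int libraries (3.41 ± 0.38, adjusted p = 0.000503). Clcf1, the cardiotrophin-like cytokine, had 4.59, 5.21 and 6.68 in the naive libraries and 214, 142 and 293 in the Siglec-F int libraries and rose by 5.01 ± 0.82 (adjusted p = 0.00253). Osm was called at 2.44 ± 0.57 (adjusted p = 0.0128), a call lost without naive library 1 (adjusted p = 0.0514). Il6ra, the binding receptor, had 41.3, 99.0 and 31.7 in the naive libraries and 275, 409.5 and 360.3 in the Siglec-F int libraries (2.74 ± 0.58, adjusted p = 0.00871). The shared chain Il6st had 98.6, 133 and 189.6 in the naive libraries and 220.1, 192 and 174 in the Siglec-F int libraries and was not called. The IL-6 family counted 7 of 13 members higher and none lower, with 4 without naive library 1 and 5 to 6 without 1 of the others.

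The type 2 cytokines Il4, Il5 and Il13 were under the minimum for testing, but receptor chains rose. Csf2rb, the common beta chain through which interleukins 3 and 5 and GM-CSF act on eosinophils, had 75.7, 99.0 and 66.0 in the naive libraries and 254, 651 and 308 in the Siglec-F int libraries (2.21 ± 0.48, adjusted p = 0.00963). Csf2ra, the GM-CSF binding chain, had 291, 274 and 201 in the naive libraries and 1123, 1740.0 and 816 in the Siglec-F int libraries (2.21 ± 0.37, adjusted p = 0.00303). Il13ra1 rose by 2.48 ± 0.40 (adjusted p = 0.00251). Il4ra had 181, 378 and 114 in the naive libraries and 356, 479 and 291 in the Siglec-F int libraries without a call. The interleukin 5 receptor gene Il5ra was under the minimum. Csf1, the growth factor of macrophages, had 16.1, 39.1 and 66.0 in the naive libraries and 527, 257 and 506 in the Siglec-F int libraries (3.52 ± 0.60, adjusted p = 0.00318). Its receptor Csf1r, a macrophage marker, had 169, 326 and 209 in the naive libraries and 867, 2842 and 1067 in the Siglec-F int libraries, highest in library 2 (2.61 ± 0.43, adjusted p = 0.00268). Kitl, the ligand of the mast cell receptor Kit, rose by 3.72 ± 0.70 (adjusted p = 0.0051). Il34, the other ligand of the Csf1 receptor, had no naive read and 276 reads in the Siglec-F int libraries, at least 30.5-fold higher against the floor. Its call (adjusted p = 0.0191) was lost once any 1 library was left out. Of the colony stimulating factors and receptors 4 of 9 were higher, with 3 with any 1 library left out.

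Monocyte chemoattractants and their receptors rose together. Ccl2 (ENSMUSG00000035385.5, chr11:82035571-82037453), the main ligand of CCR2, had 1151, 2277 and 1488 in the naive libraries and 29047, 18647 and 28159 in the Siglec-F int libraries, and the highest naive library lay far below the lowest Siglec-F int library (3.98 ± 0.36, adjusted p = 0.000244). Ccl7, which binds the same receptor, had 61.9, 78.2 and 71.0 in the naive libraries and 464, 519 and 475 in the Siglec-F int libraries (2.78 ± 0.33, adjusted p = 0.000747). Ccl12 had 11.5, 39.1 and 26.7 in the naive libraries and 185, 907 and 163 in the Siglec-F int libraries, with library 2 the highest (3.65 ± 0.72, adjusted p = 0.00617). The receptor Ccr2 had 13.8, 13 and 29.2 in the naive libraries and 192, 462 and 180.3 in the Siglec-F int libraries (3.78 ± 0.53, adjusted p = 0.00136). Cx3cr1, typical of monocytes and macrophages, rose by 3.40 ± 0.50 (adjusted p = 0.00157). Cx3cl1, the ligand of CX3CR1, had 8.03, 2.61 and 18.4 in the naive libraries and 138, 62.4 and 119.9 in the Siglec-F int libraries (3.57 ± 0.62, adjusted p = 0.00343). The transmembrane chemokine Cxcl16 rose by 2.95 ± 0.49 (adjusted p = 0.00274). The eotaxins, which draw eosinophils through CCR3, were low in both groups: Ccl11 had 5.73, 0 and 10.9 in the naive libraries and 8.59, 3.79 and 5.38 in the Siglec-F int libraries, and Ccl24 had 4.59, 20.8 and 15 in the naive libraries and 19.9, 35.8 and 18.4 in the Siglec-F int libraries. Of 14 CC chemokines tested 6 were higher (3 without naive library 1 and 4 to 5 without 1 of the others), of 12 CXC and CX3C chemokines 7 (3 without Siglec-F int library 1, 4 without Siglec-F int library 3 or naive library 1 or 3 and 5 to 6 without 1 of the others), and of 12 receptors 6 (4 to 6 with any 1 library left out), with none lower. The monocyte marker share moved with these genes, at 0.865, 2.58 and 1.1% against 0.387, 0.377 and 0.353%, and its part in them was not tested.

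**Figure D4:**
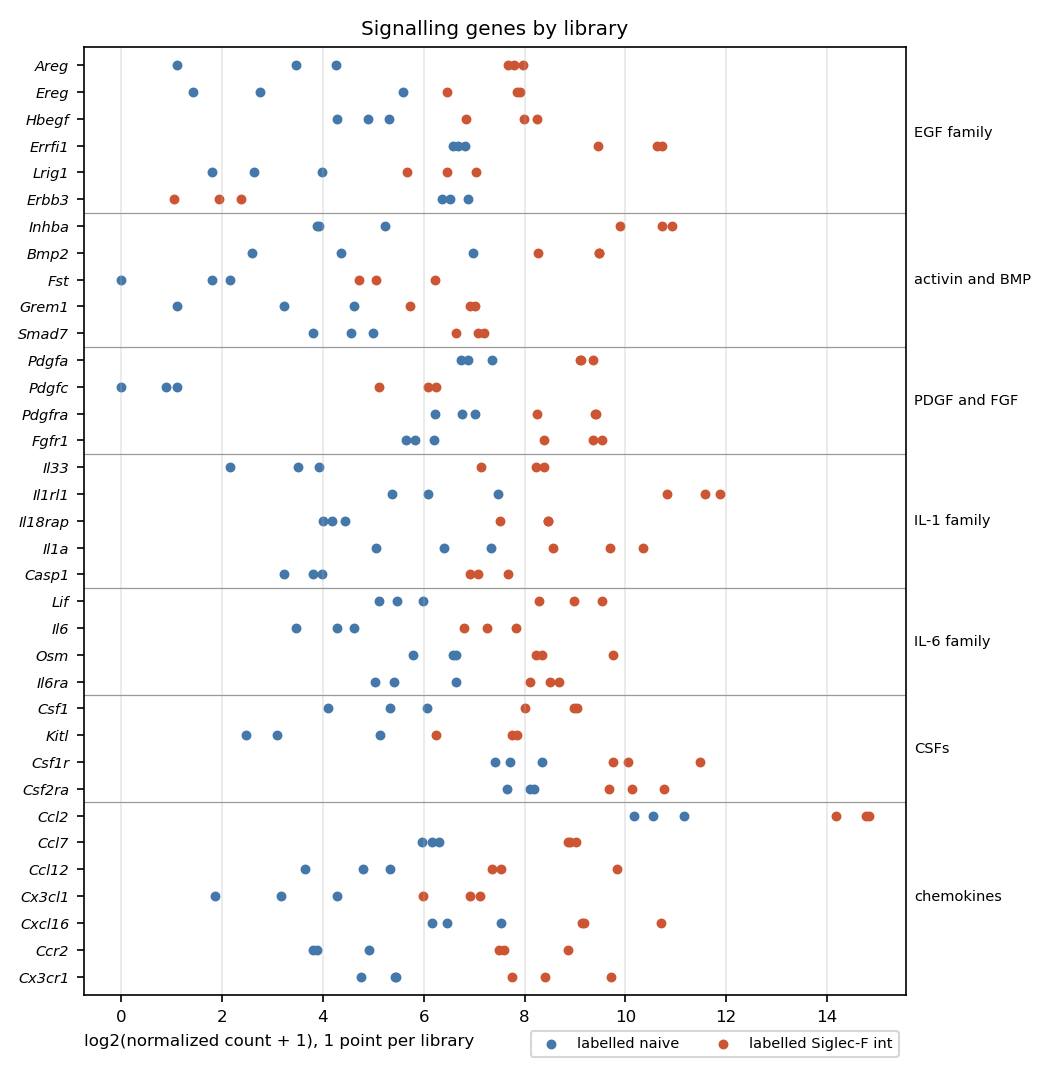
Normalized counts of growth factor, cytokine and chemokine genes on a log2(count + 1) scale, with 1 point for each of the 3 naive (blue) and 3 Siglec-F int (red) libraries. Only called genes were drawn. The groups do not overlap for any gene shown, and Erbb3 is the only gene shown in which the Siglec-F int libraries lie lower.

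Genes of the interferon gamma response rose from receptor to effector. Ifngr1, the ligand-binding receptor chain, had 81.4, 78.2 and 64.3 in the naive libraries and 216, 438 and 311 in the Siglec-F int libraries (2.04 ± 0.33, adjusted p = 0.0025). The receptor-bound kinase Jak2 had 89.5, 91.2 and 89.4 in the naive libraries and 302, 382 and 326 in the Siglec-F int libraries (1.89 ± 0.29, adjusted p = 0.00208). The guanylate-binding proteins, GTPases that attack the vacuoles of intracellular microbes, were led by Gbp7 with 25.2, 31.3 and 30.1 in the naive libraries and 379.5, 410.4 and 393 in the Siglec-F int libraries (3.73 ± 0.32, adjusted p = 0.000181). Gbp2 had 153, 75.5 and 71.0 in the naive libraries and 449.9, 749.5 and 448 in the Siglec-F int libraries (2.50 ± 0.42, adjusted p = 0.00279). Gbp3, Gbp4 and Iigp1 also kept their calls with any 1 library left out. Cxcl9 and Cxcl10, chemokines that draw T cells through CXCR3, rose by 4.6 ± 1.04 (adjusted p = 0.0113) and 3.08 ± 0.48 (adjusted p = 0.00207). In all 15 of 28 tested members were called higher and none lower, with 10 to 14 with any 1 library left out.

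Type I interferon targets rose less evenly. Ifit1, which binds viral RNA that lacks a methylated cap, had 39.0, 167 and 60.1 in the naive libraries and 396, 786 and 415 in the Siglec-F int libraries, and Siglec-F int library 2 held the highest value (2.77 ± 0.54, adjusted p = 0.00577). Mx1, a dynamin-like GTPase that blocks virus replication, had 12.6, 0 and 0 in the naive libraries and 94.5, 171 and 57.2 in the Siglec-F int libraries (5.37 ± 1.05, adjusted p = 0.00616). The poly(ADP-ribose) polymerase gene Parp14 rose by 3.79 ± 0.51 (adjusted p = 0.00112), and Oasl2 by 3.14 ± 0.65 (adjusted p = 0.00737). The receptor genes Ifnar1, with 44.7, 15.6 and 27.6 in the naive libraries and 27.9, 51.0 and 28.1 in the Siglec-F int libraries, and Ifnar2 were not called. Of 35 tested members 18 were called higher and none lower, and the count was 6 without Siglec-F int library 2, 10 without Siglec-F int library 3 or naive library 3 and 12 to 13 without 1 of the others.

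Genes of the Ifi200 family, DNA-binding proteins encoded in a cluster on chromosome 1, also rose. Ifi206 (ENSMUSG00000037849.8, chr1:173468485-173491041) had 1 read over the naive libraries and 919 over the Siglec-F int libraries, a read ratio of 305 (95% interval 54.6 to 12000). Its normalized counts were 66.0, 252 and 62.9 in the Siglec-F int libraries, highest in library 2. Ifi204 had 4.59, 15.6 and 8.35 in the naive libraries and 208, 534 and 263 in the Siglec-F int libraries (5.02 ± 0.51, adjusted p = 0.000417). Ifi203 had 6.88, 41.7 and 6.68 in the naive libraries and 181, 234 and 217 in the Siglec-F int libraries (3.94 ± 0.69, adjusted p = 0.00356). Of 10 tested members of the family 9 were called higher, with 4 without Siglec-F int library 2 and 6 to 9 without 1 of the others. These genes are near copies of each other, and reads that could belong to several of them may have been split or lost in the authors' counting. Among RNA sensors, Tlr7 was called at 4.15 ± 0.95 (adjusted p = 0.0121), but not without Siglec-F int library 2 (adjusted p = 0.0506). The interferon genes given here by library were highest in that library within the Siglec-F int group. The monocyte marker share was also highest there, at 0.865, 2.58 and 1.1% against 0.387, 0.377 and 0.353% in the naive libraries, and its part in the interferon genes was not tested.

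The promoters of 3 of these interferon genes are shown because each holds letters of the interferon-stimulated response element, the motif to which STAT and IRF factors bind. The stretches are the 150 bases before the annotated RefSeq start in GRCm38.p6, read 5′ to 3′ on the gene's strand, with GAAANNGAA on either strand in capitals. They lie at chr19:34640739-34640888 (plus strand) for Ifit1, chr1:173491319-173491468 (minus strand) for Ifi206 and chr3:142620513-142620662 (plus strand) for Gbp2.
Ifit1: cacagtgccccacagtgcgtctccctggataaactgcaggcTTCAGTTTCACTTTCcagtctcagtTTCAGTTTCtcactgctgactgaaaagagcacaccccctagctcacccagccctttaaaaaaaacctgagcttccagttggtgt
Ifi206: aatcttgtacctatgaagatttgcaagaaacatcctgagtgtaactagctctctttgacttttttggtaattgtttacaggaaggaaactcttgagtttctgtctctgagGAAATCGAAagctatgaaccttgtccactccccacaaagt
Gbp2: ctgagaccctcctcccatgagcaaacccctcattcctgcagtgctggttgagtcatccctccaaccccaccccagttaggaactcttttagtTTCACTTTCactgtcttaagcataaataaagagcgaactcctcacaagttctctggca
Ifit1 has 3 matches, of which those at 109 to 101 and 103 to 95 bases before the start overlap, and the third lies at 84 to 76. Ifi206 has a match at 40 to 32 and Gbp2 at 58 to 50 bases before the start. In windows from 250 bases before to 50 after the start, the letters occurred in 14 of 27 matched type I interferon genes, 12 of 21 interferon gamma genes and 10 of 16 nucleic acid sensors. They occurred in 9.76% of the 27025 genes with a RefSeq promoter and in 8.98% of the 10188 matched genes tested. Among matched genes the shares were 12.8% of the 1247 called higher and 8.67% of the 1142 called lower. A match is a description of letters and not a bound site.

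Few antigen presentation genes were called. B2m, the light chain of all class I molecules, had 3097, 3290.2 and 2357 in the naive libraries and 10242, 18372 and 9158 in the Siglec-F int libraries and rose by 2.06 ± 0.41 (adjusted p = 0.00621). Nlrc5, the transactivator of class I genes, rose by 3.82 ± 0.72 (adjusted p = 0.00516). The class I heavy chain H2-D1 had 2334, 3316 and 2676 in the naive libraries and 4436, 9054 and 4255 in the Siglec-F int libraries and was not called. The class II chain H2-Ab1 had 4545, 12043 and 4060.3 in the naive libraries and 12091, 46651 and 12132 in the Siglec-F int libraries, apart but not called. Cd74, the invariant chain, had 2239.8, 4410.3 and 1715 in the naive libraries and 4779, 15965 and 4378 in the Siglec-F int libraries, with overlap and no call. Both genes were called higher by DESeq2 on whole reads, after quantile normalization, with GC content and transcript length corrected for, in a fit of only the 6 libraries and with a replicate block, and Cd74 also by edgeR and with equal totals. Class I and immunoproteasome genes counted 4 of 23 higher (2 without Siglec-F int library 2 or 3 or naive library 3 and 3 without 1 of the others), with 8 under equal totals and 14 with fold changes corrected for GC content and transcript length, and 1 of 9 class II genes was higher, with none once any 1 library was left out. Of the costimulatory genes, Cd86, the ligand of CD28 and CTLA-4, had 0, 31.3 and 14.2 in the naive libraries and 159, 543 and 224 in the Siglec-F int libraries (5.09 ± 1.05, adjusted p = 0.00751). Havcr2, which codes for TIM-3, had 3.44, 7.82 and 11.7 in the naive libraries and 113, 279 and 121 in the Siglec-F int libraries (4.32 ± 0.66, adjusted p = 0.00194). Tnfsf9, the ligand of 4-1BB, rose by 1.85 ± 0.43 (adjusted p = 0.0127). Cd80 had 1.15, 93.8 and 5.01 in the naive libraries and 20.4, 80.9 and 52.2 in the Siglec-F int libraries and was not called.

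Receptors for microbial patterns and immune complexes rose. Clec7a, the beta-glucan receptor dectin-1, had 196, 271 and 203 in the naive libraries and 937, 3354 and 1350.3 in the Siglec-F int libraries, with library 2 the highest (2.87 ± 0.48, adjusted p = 0.0029). Clec4e, which codes for Mincle, had 51.6, 109 and 148 in the naive libraries and 397, 689 and 519.7 in the Siglec-F int libraries (2.46 ± 0.41, adjusted p = 0.00274). Tlr13, an endosomal receptor of bacterial ribosomal RNA, rose by 3.15 ± 0.61 (adjusted p = 0.00573). The scavenger receptor Msr1 had 31.0, 154 and 53.5 in the naive libraries and 556, 1631 and 450.4 in the Siglec-F int libraries (3.52 ± 0.63, adjusted p = 0.00406). Tlr4, the endotoxin receptor, had 21.8, 62.5 and 28.4 in the naive libraries and 34.4, 40.9 and 21.5 in the Siglec-F int libraries and was not called. Fcgr2b, the inhibitory receptor for IgG, had 224, 141 and 210.5 in the naive libraries and 1018, 2891 and 910.0 in the Siglec-F int libraries (2.88 ± 0.45, adjusted p = 0.00216). Lyn, a kinase that starts its signal, rose by 2.29 ± 0.51 (adjusted p = 0.0108). Pattern receptors counted 11 of 23 higher and none lower (8 to 11 with any 1 library left out). Fc receptors and their adaptors counted 6 of 14 (2 without naive library 1 or 3, 3 without naive library 2 and 4 to 6 without 1 of the others).

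Complement split by component. C2, a protease of the classical pathway, had 664, 570.5 and 647 in the naive libraries and 34.4, 37.1 and 59.5 in the Siglec-F int libraries and fell by 3.85 ± 0.34 (adjusted p = 0.000181). The anaphylatoxin receptor C3ar1 had 153, 146 and 139 in the naive libraries and 557, 1515 and 605 in the Siglec-F int libraries (2.45 ± 0.39, adjusted p = 0.00227). Itgam, the alpha chain of complement receptor 3, rose by 2.42 ± 0.50 (adjusted p = 0.00779). The complement list counted 7 of 22 higher (4 without naive library 1 and 5 to 6 without 1 of the others) and 2 lower. Lysosomal proteases of antigen-presenting cells were higher, with Ctss at 2006, 2019 and 1250.4 in the naive libraries and 7216, 29734 and 8681 in the Siglec-F int libraries (2.84 ± 0.52, adjusted p = 0.00434) and Ctsc at 406, 234 and 256 in the naive libraries and 1450.5, 4135 and 1480.3 in the Siglec-F int libraries (2.83 ± 0.47, adjusted p = 0.00268). The proton pump subunit Atp6v1e1 had 2411, 1805 and 1593 in the naive libraries and 465, 655 and 444 in the Siglec-F int libraries and fell by 1.89 ± 0.30 (adjusted p = 0.00231). The lysosome list counted 8 of 37 higher (6 to 8 with any 1 library left out) and 5 lower (1 without Siglec-F int library 1 or 3, 3 without naive library 3 and 4 to 5 without 1 of the others), and its median changed sign with the scaling. For the pattern receptor, Fc receptor, complement and lysosomal genes that rose, the monocyte marker share of 0.865, 2.58 and 1.1% against 0.387, 0.377 and 0.353% moved alongside, and its part was not tested.

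Genes of rapid transcriptional responses were high in the Siglec-F int libraries. Egr1, a zinc finger factor induced within minutes of stimulation, had 261, 445 and 289 in the naive libraries and 1946, 1200.3 and 1892 in the Siglec-F int libraries (2.34 ± 0.31, adjusted p = 0.000968). Egr2 had 29.8, 49.5 and 30.9 in the naive libraries and 286, 197 and 268 in the Siglec-F int libraries (2.75 ± 0.36, adjusted p = 0.000975). Fosl1, a partner of Jun in the AP-1 factor, had 9.17, 122 and 111 in the naive libraries and 1504, 681 and 1252 in the Siglec-F int libraries, with library 2 the lowest (4.39 ± 0.89, adjusted p = 0.00694). Jun rose by 1.62 ± 0.34 (adjusted p = 0.00766), and Klf4 by 2.16 ± 0.37 (adjusted p = 0.00304). The feedback genes rose too: Zfp36, which destabilizes cytokine messenger RNAs, had 1186, 1771 and 1399 in the naive libraries and 5918, 6390.1 and 5688 in the Siglec-F int libraries (2.06 ± 0.27, adjusted p = 0.001). Sgk1, a kinase induced by serum and glucocorticoids, had 552, 1042 and 710.0 in the naive libraries and 8686, 3669 and 6079.9 in the Siglec-F int libraries (2.96 ± 0.36, adjusted p = 0.000748). Rgs1, a brake on chemokine receptors, rose by 3.76 ± 0.67 (adjusted p = 0.00391). Dusp4, a phosphatase of MAP kinases, went the other way with 248, 190.2 and 245 in the naive libraries and 47.2, 35.0 and 38.9 in the Siglec-F int libraries and fell by 2.47 ± 0.50 (adjusted p = 0.00678). Fos was called higher at 0.81 ± 0.23 (adjusted p = 0.0305), a call that ended without any 1 library but Siglec-F int library 2 (adjusted p = 0.0587 to 0.123). Of 33 tested members 22 were higher and 1 lower, with 18 to 19 with any 1 library left out.

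In the NF-kB list the inhibitors led. Nfkbia, which codes for the inhibitor IkB alpha, had 2477, 3824 and 1919 in the naive libraries and 9417, 11456 and 10711 in the Siglec-F int libraries (2.0 ± 0.30, adjusted p = 0.0019). Tnfaip3, the deubiquitinase A20, had 81.4, 104 and 67.7 in the naive libraries and 699, 676 and 729 in the Siglec-F int libraries (3.06 ± 0.33, adjusted p = 0.000503). Nfkbiz rose by 2.57 ± 0.40 (adjusted p = 0.00208). Of the subunits, Nfkb1 rose by 1.61 ± 0.33 (adjusted p = 0.00706). Rela had 78.0, 52.1 and 81.9 in the naive libraries and 68.7, 80.0 and 70.8 in the Siglec-F int libraries and was not called. Vcam1, an endothelial and stromal adhesion target, had 28.7, 44.3 and 47.6 in the naive libraries and 512, 252 and 471 in the Siglec-F int libraries (3.29 ± 0.40, adjusted p = 0.000766). The list counted 13 of 25 higher and none lower, with 6 without Siglec-F int library 2 or 3, 7 without naive library 1 or 3 and 10 to 11 without 1 of the others. Tnf had 192, 292 and 297 in the naive libraries and 415, 1363 and 685 in the Siglec-F int libraries and was not called. Its receptor Tnfrsf1b rose by 1.95 ± 0.34 (adjusted p = 0.0035).

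The promoters of Nfkbia and Il6 are given because both rose and both hold NF-kB letters close to the start. They are 150 bases before the start, in GRCm38.p6, at chr12:55492648-55492797 (minus strand) and chr5:30012964-30013113 (plus strand), with GGGANTTTC and GAAANNGAA on either strand in capitals.
Nfkbia: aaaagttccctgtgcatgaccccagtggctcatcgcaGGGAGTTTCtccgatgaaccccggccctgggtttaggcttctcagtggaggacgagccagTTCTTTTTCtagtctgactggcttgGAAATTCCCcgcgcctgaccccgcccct
Il6: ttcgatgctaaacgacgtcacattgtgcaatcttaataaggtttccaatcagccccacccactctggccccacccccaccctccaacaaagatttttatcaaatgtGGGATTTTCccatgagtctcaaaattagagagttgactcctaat
Nfkbia has the NF-kB letters at 113 to 105 and 28 to 20 bases before the start, with the letters of the interferon element at 53 to 45 between them, and Il6 has them at 44 to 36. They occurred in 3 of 21 matched genes of the NF-kB list and 3 of 10 CXC chemokines, against 1.29% of all RefSeq promoters and 1.2% of those of genes tested. The share was 1.68% among promoters of genes called higher and 0.963% among those of genes called lower.

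Prostaglandin synthesis rose at its entry steps. Ptgs2, the inducible cyclooxygenase COX-2, had 34.4, 214 and 86.0 in the naive libraries and 1201, 1519 and 1374 in the Siglec-F int libraries (3.96 ± 0.62, adjusted p = 0.0021). Pla2g4a, the phospholipase that frees arachidonic acid, had 2.29, 31.3 and 37.6 in the naive libraries and 307, 359.8 and 311 in the Siglec-F int libraries (4.35 ± 0.79, adjusted p = 0.00423). Ptgs1, the constitutive COX-1, rose by 2.38 ± 0.45 (adjusted p = 0.005). The terminal synthase of prostaglandin E2, Ptges, had 17.2, 2.61 and 36.8 in the naive libraries and 49.4, 48.0 and 49.7 in the Siglec-F int libraries and was not called. The receptors Ptger1 to Ptger4 were not called. Ptger4 had 24.1, 62.5 and 22.6 in the naive libraries and 59.0, 251 and 102 in the Siglec-F int libraries. The prostaglandin list counted 4 of 16 higher and none lower, with 3 to 5 with any 1 library left out. That list does not hold Ptgds, a prostaglandin D synthase gene counted with the neural crest and melanocyte regulators. Ptgds was called lower, with a log2 fold change of -7.51 (adjusted p = 0.00102). Of the 13 genes of leukotrienes and other lipid mediators tested, 4 were called higher (2 without Siglec-F int library 2 or 3 or naive library 1 or 3 and 3 without 1 of the others) and 1 lower. Ptafr, the receptor of platelet-activating factor, rose by 2.24 ± 0.48 (adjusted p = 0.00876). Pla2g7, the hydrolase of that lipid, had 157, 232 and 134 in the naive libraries and 1020.5, 1078 and 1183 in the Siglec-F int libraries (2.68 ± 0.29, adjusted p = 0.00048). Alox5 and Ltc4s, the enzymes by which eosinophils make cysteinyl leukotrienes, had 63.1, 86.0 and 54.3 in the naive libraries and 50.5, 117 and 71.8 in the Siglec-F int libraries, and 139.9, 375 and 129 in the naive libraries and 342, 443 and 277 in the Siglec-F int libraries, respectively, and were not called.

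Matrix genes rose, and in those given by library Siglec-F int library 2 was the lowest of its group. Fn1, fibronectin, had 890.0, 989.9 and 1014 in the naive libraries and 9083, 6176 and 7947 in the Siglec-F int libraries (2.99 ± 0.26, adjusted p = 0.000181). Postn, periostin, a matrix protein that interleukin 13 and TGF-beta induce, had 19.5, 33.9 and 20.1 in the naive libraries and 768, 217 and 625 in the Siglec-F int libraries (4.26 ± 0.53, adjusted p = 0.000835). Dcn, the proteoglycan decorin, had 104, 281 and 185 in the naive libraries and 3721, 1129 and 3424 in the Siglec-F int libraries (3.78 ± 0.49, adjusted p = 0.000948). Spp1, osteopontin, had 167, 565 and 319 in the naive libraries and 7198, 5836 and 6687 in the Siglec-F int libraries (4.39 ± 0.49, adjusted p = 0.00054). Has1, a hyaluronan synthase, rose by 4.25 ± 0.49 (adjusted p = 0.000649). Fbln1 and P4ha2 went the other way: fibulin 1 had 484, 573 and 505 in the naive libraries and 62.8, 31.6 and 46.5 in the Siglec-F int libraries and fell by 3.49 ± 0.39 (adjusted p = 0.00054). The collagen prolyl hydroxylase P4ha2 fell by 2.07 ± 0.35 (adjusted p = 0.00293). Glycoproteins and crosslinking enzymes counted 14 of 31 higher and 3 lower, with 12 to 16 with any 1 library left out.

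Collagen chains differed by type. Col6a1, of the microfibrillar collagen VI, had 624, 732 and 760.1 in the naive libraries and 4873, 2727 and 5109.8 in the Siglec-F int libraries (2.54 ± 0.29, adjusted p = 0.000626). Col6a3 rose by 2.52 ± 0.32 (adjusted p = 0.000925). Col5a1 had 123, 175 and 193 in the naive libraries and 1399, 668 and 1413 in the Siglec-F int libraries (2.77 ± 0.41, adjusted p = 0.00163). Col8a1 had 18.4, 62.5 and 12.5 in the naive libraries and 691, 201 and 651 in the Siglec-F int libraries (4.14 ± 0.61, adjusted p = 0.00168). The chains of collagen I, the main fibrillar collagen of fibroblasts, were not called: Col1a1 had 776, 584 and 743 in the naive libraries and 1567, 733 and 1294 in the Siglec-F int libraries, and Col1a2 had 2402, 1712 and 2229 in the naive libraries and 2546, 1644 and 2821 in the Siglec-F int libraries. Of 18 collagens 8 were higher and none lower, with 5 without Siglec-F int library 3 and 6 to 8 without 1 of the others. Timp3, an inhibitor of matrix proteases, had 521, 795 and 635 in the naive libraries and 5318, 1913 and 5160.4 in the Siglec-F int libraries (2.55 ± 0.42, adjusted p = 0.00277). The protease and inhibitor list counted 8 of 24 higher, with 2 without Siglec-F int library 1 or 3, 3 without naive library 1 and 6 without 1 of the others. Among integrins, Itga6 had 27.5, 31.3 and 70.2 in the naive libraries and 342, 381 and 352 in the Siglec-F int libraries (3.15 ± 0.37, adjusted p = 0.000696). Cald1, a regulator of actomyosin, rose by 3.21 ± 0.52 (adjusted p = 0.00249). The smooth muscle gene Acta2 had 1053, 1175 and 1246 in the naive libraries and 1994, 1177 and 1651 in the Siglec-F int libraries and was not called.

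Transcription factors of mesenchymal cells also rose. Twist1, which drives mesenchymal traits in development and in tumours, had 4.59, 15.6 and 24.2 in the naive libraries and 237, 79.6 and 215 in the Siglec-F int libraries (3.60 ± 0.62, adjusted p = 0.00326). Prrx1, a homeobox factor of limb and stromal mesenchyme, had 1.15, 15.6 and 0 in the naive libraries and 193, 86.8 and 187 in the Siglec-F int libraries (5.49 ± 0.92, adjusted p = 0.00287). Scx, a factor of tendon progenitors, had 3 reads over the naive libraries and 940 over the Siglec-F int libraries, a read ratio of 104 (95% interval 35.4 to 505). Zeb1 had 19.5, 7.82 and 43.4 in the naive libraries and 256, 174 and 323 in the Siglec-F int libraries (3.61 ± 0.69, adjusted p = 0.00544). Tcf4 rose by 2.18 ± 0.33 (adjusted p = 0.00197). Msx2 had no naive read and 177 reads in the Siglec-F int libraries, at least 19.6-fold higher against the floor. Tbx2, a repressor found in lung mesenchyme and in pigment cells, had 382, 445 and 396 in the naive libraries and 45.1, 23.2 and 47.1 in the Siglec-F int libraries and fell by 3.44 ± 0.43 (adjusted p = 0.000877). The lung fibroblast factor Tcf21 had 18.4, 23.4 and 22.6 in the naive libraries and 10.7, 9.69 and 6.64 in the Siglec-F int libraries and was not called. The list counted 11 of 21 higher and 2 lower, with 9 to 11 with any 1 library left out. Of the Hox genes 12 were tested and only Hoxa10 was called, with 123, 83.4 and 129 in the naive libraries and 0, 2.95 and 0.32 in the Siglec-F int libraries (-6.00 ± 0.93, adjusted p = 0.00207).

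Genes of 2 retinoic acid carriers rose, while the retinoid list as a whole was mixed. Crabp1, which binds retinoic acid in the cytosol, had 12.6, 39.1 and 7.52 in the naive libraries and 1324, 372 and 1492 in the Siglec-F int libraries (5.76 ± 1.09, adjusted p = 0.00512). Crabp2 had 25.2, 62.5 and 25.1 in the naive libraries and 792, 458 and 846 in the Siglec-F int libraries (4.26 ± 0.68, adjusted p = 0.00237). Rdh10, which makes retinaldehyde, rose by 2.20 ± 0.41 (adjusted p = 0.00455). Stra6, the retinol uptake receptor, had 2 reads over the naive libraries and 361 over the Siglec-F int libraries, a read ratio of 59.9 (95% interval 16.4 to 496). Aldh1a2, the synthase of retinoic acid, had 67.7, 172 and 63.5 in the naive libraries and 66.6, 72.9 and 48.4 in the Siglec-F int libraries and was not called. The retinoid list counted 4 of 14 higher (4 to 5 with any 1 library left out) and 2 lower (0 to 1 with any 1 library left out), and its median changed sign with the scaling. Other large rises included the RNA-binding protein gene Igf2bp2, with a read ratio of 112 (95% interval 30.8 to 923), Artn, which codes for the neurotrophic ligand artemin, with 103 (95% interval 28.5 to 856), and Prkg2, a cyclic GMP-dependent kinase gene, with 3.44, 28.7 and 12.5 in the naive libraries and 757, 296 and 730.0 in the Siglec-F int libraries (5.50 ± 0.64, adjusted p = 0.000678). Gata3, the factor of type 2 lymphocytes, had 1.15, 0 and 3.34 in the naive libraries and 162, 46.8 and 149.6 in the Siglec-F int libraries (5.65 ± 0.69, adjusted p = 0.000766). The summed fibroblast marker share was higher alongside the matrix, mesenchymal and retinoid genes that rose, at 0.639, 0.217 and 0.554% against 0.189, 0.16 and 0.212%, although 10 of the 15 markers tested were not called and Dcn and Col3a1 also belong to the matrix lists. None of the 16 markers was at 0 in a Siglec-F int library, and the part of the fibroblast share was not tested.

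S100 proteins, small calcium-binding proteins, split by member. S100a4 had 185, 500.2 and 249.8 in the naive libraries and 4809, 2626 and 3974 in the Siglec-F int libraries (3.69 ± 0.39, adjusted p = 0.00043). S100a6 had 2624, 4884 and 3289 in the naive libraries and 22739, 17501 and 23429 in the Siglec-F int libraries (2.60 ± 0.34, adjusted p = 0.000967). S100a10 and S100a11, both annexin partners, rose by 1.66 ± 0.29 (adjusted p = 0.00349) and 1.51 ± 0.23 (adjusted p = 0.00207). The neutrophil alarmins S100a8 and S100a9 were not called, with 479, 576 and 855 in the naive libraries and 264, 186 and 266 in the Siglec-F int libraries, and 757, 946 and 1481 in the naive libraries and 602, 356 and 531 in the Siglec-F int libraries, respectively. The list counted 4 of 9 higher and 1 lower, and these 4 stayed higher with any 1 library left out. The iron and heme list had 3 of 20 called higher and 2 lower (1 to 2 each with any 1 library left out), close to the shares of all genes tested. The transferrin receptor Tfrc had 526, 724 and 848 in the naive libraries and 126, 104 and 105 in the Siglec-F int libraries and fell by 2.61 ± 0.37 (adjusted p = 0.00139). The ferroxidase Cp, ceruloplasmin, had 90.6, 159 and 125 in the naive libraries and 2004, 526 and 1809.9 in the Siglec-F int libraries (3.34 ± 0.52, adjusted p = 0.00207). F13a1, the transglutaminase of clots and a marker of monocytes and macrophages, rose by 3.55 ± 0.43 (adjusted p = 0.000766). Tfpi, the inhibitor of tissue factor, fell by 1.99 ± 0.42 (adjusted p = 0.00875).

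Genes of melanin synthesis, which pigment cells express, fell far. Pmel (ENSMUSG00000025359.10, chr10:128704195-128720238), the scaffold on which melanin is laid down, had 11243, 20329.7 and 14625 in the naive libraries and 60.1, 68.2 and 63.6 in the Siglec-F int libraries (-7.85 ± 0.60, adjusted p = 0.000127). Dct, a melanin enzyme, had 24778, 17865 and 25873 in the naive libraries and 100.4, 129.8 and 242 in the Siglec-F int libraries (-7.25 ± 0.61, adjusted p = 0.000173). Tyr, tyrosinase, the rate-limiting enzyme, had 536, 448 and 707 in the naive libraries and 6.98, 2.11 and 8.54 in the Siglec-F int libraries (-6.49 ± 0.79, adjusted p = 0.000766). Tyrp1 had 8952, 7112 and 11344 in the naive libraries and 52.1, 60.7 and 184 in the Siglec-F int libraries (-6.73 ± 1.05, adjusted p = 0.0021). Gpr143, a melanosomal receptor, had 291 reads over the naive libraries and none over the Siglec-F int libraries. Of the genes that carry melanosomes, Mlph, the link from RAB27A to myosin Va, had 913, 1479.7 and 920.5 in the naive libraries and 8.59, 15.6 and 14.2 in the Siglec-F int libraries (-6.32 ± 0.57, adjusted p = 0.000215). Rab38 had 1429, 1256 and 1790.0 in the naive libraries and 15.6, 8.0 and 13.3 in the Siglec-F int libraries (-6.84 ± 0.50, adjusted p = 0.000116). The motor gene Myo5a, which many cells use, had 94.0, 141 and 172 in the naive libraries and 191, 170.2 and 169 in the Siglec-F int libraries and was not called. Gpnmb, which pigment cells and macrophages both express, had 17914, 13387 and 11891 in the naive libraries and 676, 1503 and 932 in the Siglec-F int libraries (-3.85 ± 0.38, adjusted p = 0.000385). Of 24 tested members 15 were lower, with 14 to 15 with any 1 library left out, and the cystine transporter Slc7a11 was the only one called higher, in the full set of libraries but in none of the leave-outs.

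Regulators of pigment cells followed in part. Sox10, a factor of neural crest, melanocytes and glia, had 8554, 12775 and 9874 in the naive libraries and 44.0, 45.1 and 64.2 in the Siglec-F int libraries (-7.64 ± 0.84, adjusted p = 0.000503). Mc1r, the melanocortin receptor, had 614, 766 and 814 in the naive libraries and 8.59, 3.37 and 3.80 in the Siglec-F int libraries (-6.96 ± 0.77, adjusted p = 0.000503). Mitf, the master regulator of melanocytes, which macrophages and mast cells also use, had 199.6, 193 and 352 in the naive libraries and 54.8, 51.4 and 52.8 in the Siglec-F int libraries (-2.15 ± 0.47, adjusted p = 0.0102). Pax3 fell by 2.33 ± 0.44 (adjusted p = 0.00532). Sox9 went the other way with 255, 211 and 179 in the naive libraries and 3825, 1593 and 3707 in the Siglec-F int libraries (3.73 ± 0.38, adjusted p = 0.000391). Tfap2b had 1 read over the naive libraries and 444 over the Siglec-F int libraries, a read ratio of 147 (95% interval 26.3 to 5830). Ednrb, the endothelin receptor of melanoblasts, had 9.17, 41.7 and 44.3 in the naive libraries and 48.3, 14.3 and 17.4 in the Siglec-F int libraries and was not called. The list counted 9 of 18 lower and 3 higher, with 8 to 9 with any 1 library left out. Other deep falls included the tetraspanin gene Tspan10, with 747, 1123 and 907 in the naive libraries and 1.07, 0.84 and 3.16 in the Siglec-F int libraries (-8.51 ± 0.69, adjusted p = 0.000173), the carbonic anhydrase gene Car14, with 1795, 1425 and 1307 in the naive libraries and 10.2, 7.16 and 11.1 in the Siglec-F int libraries (-7.18 ± 0.46, adjusted p = 0.000116), and Ptgds, which codes for lipocalin-type prostaglandin D synthase, with 10949, 11387 and 11821 in the naive libraries and 33.3, 81.7 and 85.1 in the Siglec-F int libraries (-7.51 ± 0.99, adjusted p = 0.00102).

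Promoters of 3 pigment genes are shown because they hold an E-box, the motif that MITF binds, just before the start. The stretches are the 150 bases before the start in GRCm38.p6, with CATGTG or CACGTG on either strand in capitals, at chr7:87493513-87493662 (minus strand) for Tyr, chr4:80834063-80834212 (plus strand) for Tyrp1 and chr1:90914950-90915099 (plus strand) for Mlph.
Tyr: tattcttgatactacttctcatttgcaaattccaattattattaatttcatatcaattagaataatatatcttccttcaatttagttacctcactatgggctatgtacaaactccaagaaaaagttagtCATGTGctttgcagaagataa
Tyrp1: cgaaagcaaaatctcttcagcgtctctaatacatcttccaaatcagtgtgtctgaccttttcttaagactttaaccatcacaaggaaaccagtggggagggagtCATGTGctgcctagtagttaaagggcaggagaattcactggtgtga
Mlph: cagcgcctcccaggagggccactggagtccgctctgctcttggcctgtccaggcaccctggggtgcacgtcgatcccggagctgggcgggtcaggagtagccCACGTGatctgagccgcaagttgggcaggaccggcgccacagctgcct
Tyr has CATGTG at 21 to 16, Tyrp1 at 46 to 41, and Mlph has CACGTG at 48 to 43 bases before the start. CATGTG occurred in 7 of 9 matched genes of the pigment cell list, in 9 of 19 of the melanin list and in 1 of 16 neural crest and melanocyte regulators. CACGTG occurred in 1, 7 and 1 of these. Among all RefSeq promoters the shares were 15.9% for CATGTG and 8.09% for CACGTG, and among those of genes tested 10.7 and 11.7%. Among the promoters of genes called lower they were 11.8 and 12.3%, close to the shares of genes tested.

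Glycolysis genes were lower. Tpi1, triose phosphate isomerase, had 9700.1, 13280.4 and 9981 in the naive libraries and 1033, 1317 and 1330.0 in the Siglec-F int libraries (-3.16 ± 0.56, adjusted p = 0.00384). Pgk1, which makes the first ATP of the pathway, had 22186, 16826 and 21719 in the naive libraries and 2634, 2901 and 2689 in the Siglec-F int libraries (-2.87 ± 0.25, adjusted p = 0.000181). Gapdh had 10560.2, 14953 and 12752 in the naive libraries and 1952, 2725 and 1991 in the Siglec-F int libraries (-2.52 ± 0.49, adjusted p = 0.00589). Ldha, which turns pyruvate into lactate, fell by 2.34 ± 0.26 (adjusted p = 0.000503), and Pgam1 by 1.90 ± 0.27 (adjusted p = 0.00146). The glucose transporter Slc2a1 had 319, 310.0 and 335 in the naive libraries and 181, 259 and 274 in the Siglec-F int libraries and was not called. Of 22 tested members 14 were lower and none higher, with 7 without Siglec-F int library 1 or 3, 8 without naive library 2, 9 without naive library 1 and 10 to 13 without 1 of the others. Hypoxia-induced genes split: Car9, carbonic anhydrase IX, had 2116, 2071 and 2173 in the naive libraries and 217, 152 and 189 in the Siglec-F int libraries (-3.52 ± 0.26, adjusted p = 0.000116). The mitophagy gene Bnip3 fell by 2.03 ± 0.29 (adjusted p = 0.00155). Hif1a had 181, 320.4 and 227 in the naive libraries and 351, 454 and 331 in the Siglec-F int libraries and Ndrg1 had 664, 1154 and 872 in the naive libraries and 883, 608 and 1069 in the Siglec-F int libraries, neither of them called. The hypoxia list counted 6 of 18 lower (4 to 5 with any 1 library left out) and 1 higher, and its median changed sign with the scaling.

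Mitochondrial genes encoded in the nucleus fell together. Ndufa4, a subunit of the respiratory chain, had 2457, 1912 and 2950.2 in the naive libraries and 274, 278 and 235 in the Siglec-F int libraries (-3.19 ± 0.33, adjusted p = 0.00043). Uqcrq of complex III had 4605, 5119 and 4294 in the naive libraries and 788, 1056 and 669.6 in the Siglec-F int libraries (-2.50 ± 0.28, adjusted p = 0.000503), Cox5b of complex IV fell by 2.31 ± 0.26 (adjusted p = 0.000594). Atp5c1 of the ATP synthase had 7377, 9477 and 8856 in the naive libraries and 2309, 3363 and 2169 in the Siglec-F int libraries (-1.73 ± 0.26, adjusted p = 0.00194). Of 40 such subunits 30 were lower and none higher, with 18 without Siglec-F int library 3 and 20 to 28 without 1 of the others, and the median fold change was -1.57. None of the 13 protein genes of the mitochondrial genome was called: mt-Co1 had 69439.8, 80594 and 49194 in the naive libraries and 46528, 71324 and 47669 in the Siglec-F int libraries, and mt-Atp6 had 193754, 196396 and 79449.7 in the naive libraries and 157829, 161322 and 141152 in the Siglec-F int libraries. The difference between the nuclear and the mitochondrial genes was not tested. In the tricarboxylic acid cycle, Sdhb of succinate dehydrogenase had 1544, 1883 and 1580.3 in the naive libraries and 193, 328 and 163 in the Siglec-F int libraries (-2.93 ± 0.42, adjusted p = 0.00146). Suclg1 fell by 2.04 ± 0.25 (adjusted p = 0.000788). Sucla2, a subunit of the ATP-forming succinate-CoA ligase, had 139.9, 130.2 and 198 in the naive libraries and 268, 262 and 254 in the Siglec-F int libraries and was not called. That list counted 13 of 21 lower and none higher (6 without Siglec-F int library 1 or 3, 8 without naive library 1 or 3 and 11 to 12 without 1 of the others), and 8 were lower under equal totals. Mitochondrial ribosomal proteins counted 14 of 28 lower (4 without Siglec-F int library 3, 5 without Siglec-F int library 1, 8 without naive library 2, 9 without naive library 1 or 3 and 10 without the other), 8 were lower under equal totals, and Mrpl15 had the smallest adjusted p with -1.93 ± 0.35, adjusted p = 0.00419.

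**Figure D5:**
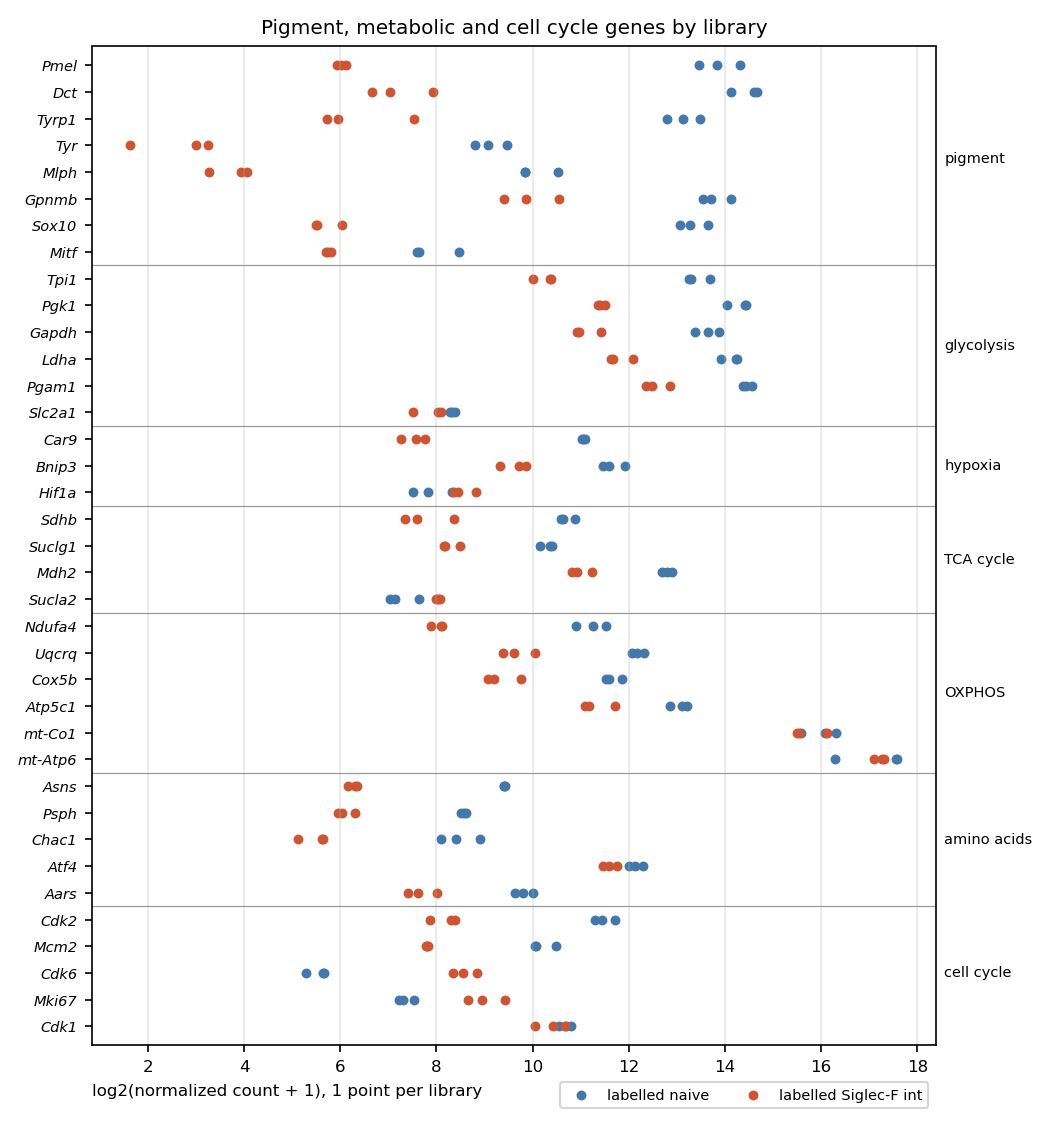
Normalized counts of pigment, metabolic and cell cycle genes on a log2(count + 1) scale, with 1 point for each of the 3 naive (blue) and 3 Siglec-F int (red) libraries. The groups overlap for mt-Co1, mt-Atp6 and Cdk1 and for no other gene shown, and the widest gaps are in the melanin genes at the top.

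Enzymes of serine and asparagine synthesis, known targets of the stress factor ATF4, fell. Asns, asparagine synthetase, had 686, 679.9 and 679.9 in the naive libraries and 80.5, 70.4 and 78.4 in the Siglec-F int libraries (-3.14 ± 0.28, adjusted p = 0.000181). Psph, the last enzyme of serine synthesis, had 379.6, 365 and 389 in the naive libraries and 64.4, 77.9 and 60.7 in the Siglec-F int libraries (-2.47 ± 0.31, adjusted p = 0.000835). Psat1 and Phgdh, the steps before it, fell by 1.83 ± 0.28 (adjusted p = 0.00194) and 2.38 ± 0.48 (adjusted p = 0.00683). The mitochondrial folate enzymes Shmt2 and Mthfd2 fell by 2.22 ± 0.40 (adjusted p = 0.00391) and 2.06 ± 0.33 (adjusted p = 0.00247). Chac1, a glutathione-degrading enzyme of the same response, had 274, 479 and 339 in the naive libraries and 33.8, 48.9 and 48.1 in the Siglec-F int libraries (-3.01 ± 0.57, adjusted p = 0.00534). Atf4 itself had 4501, 4098 and 5024 in the naive libraries and 2818, 3076 and 3448 in the Siglec-F int libraries and was not called. The integrated stress response list counted 9 of 19 lower, with 8 to 9 with any 1 library left out, and 1 higher (Slc7a11). Aars, Gars and Sars, which load alanine, glycine and serine onto their tRNAs, fell by 2.13 ± 0.28 (adjusted p = 0.00111), 1.95 ± 0.29 (adjusted p = 0.00186) and 2.17 ± 0.46 (adjusted p = 0.00818). The tRNA synthetases counted 7 of 19 lower (3 without Siglec-F int library 1 or 3 or naive library 1, 4 without naive library 3 and 5 to 7 without 1 of the others). 3 were lower under equal totals.

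Cell cycle genes did not move as a block. Cdk2, the kinase of the G1 to S transition, had 3348, 2767 and 2528 in the naive libraries and 232, 336 and 313 in the Siglec-F int libraries (-3.30 ± 0.34, adjusted p = 0.000417). Cdk6, which acts before it, had 37.9, 49.5 and 49.3 in the naive libraries and 373, 324 and 457 in the Siglec-F int libraries (3.05 ± 0.34, adjusted p = 0.000542). Mcm2, of the replicative helicase, had 1053, 1435 and 1067 in the naive libraries and 218, 225 and 223 in the Siglec-F int libraries (-2.40 ± 0.29, adjusted p = 0.000727). Mki67, which codes for the proliferation antigen Ki-67, had 148, 185 and 158 in the naive libraries and 685, 494 and 400.1 in the Siglec-F int libraries and was called higher (1.65 ± 0.33, adjusted p = 0.00627), which was not called once GC content and transcript length were corrected for. Cdk1, the mitotic kinase, had 1787, 1644 and 1504 in the naive libraries and 1379, 1061 and 1623 in the Siglec-F int libraries and was not called. The list counted 5 of 41 higher (2 without Siglec-F int library 1 or 3 or naive library 1 or 2 and 4 without 1 of the others) and 12 lower (6 without Siglec-F int library 1 or 3 or naive library 1, 7 without naive library 2 or 3 and 8 without the other). The retinoblastoma gene Rb1 rose by 3.41 ± 0.62 (adjusted p = 0.00438), Mdm2 by 1.43 ± 0.28 (adjusted p = 0.00596) and Gadd45a by 2.42 ± 0.49 (adjusted p = 0.00668). Cdkn1a, the p53 target p21, had 4229.6, 4801 and 4657 in the naive libraries and 3589, 5097 and 4606 in the Siglec-F int libraries and was not called.

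Most lipid genes were not called. Of cholesterol synthesis genes 3 of 18 were lower and none higher (1 to 2 lower with any 1 library left out). Of genes of fatty acid synthesis and cholesterol export 3 of 19 were higher (1 without Siglec-F int library 3 or naive library 1 or 3 and 2 to 3 without 1 of the others) and 4 lower (2 without Siglec-F int library 1 or 3 or naive library 3 and 3 to 4 without 1 of the others). Abca1, which exports cholesterol, had 108, 10.4 and 77.7 in the naive libraries and 505, 941 and 550.4 in the Siglec-F int libraries (3.80 ± 0.72, adjusted p = 0.00532). Fasn, fatty acid synthase, had 405, 586 and 452 in the naive libraries and 91.3, 56.0 and 103 in the Siglec-F int libraries and fell by 2.54 ± 0.49 (adjusted p = 0.00581). Scd2, a fatty acid desaturase, fell by 2.19 ± 0.28 (adjusted p = 0.000931), and Dhcr7, a late enzyme of cholesterol synthesis, by 2.45 ± 0.45 (adjusted p = 0.00444). Gsta4, a glutathione transferase that clears lipid aldehydes, had 1056, 870.1 and 772 in the naive libraries and 23.6, 37.9 and 59.5 in the Siglec-F int libraries (-4.53 ± 0.43, adjusted p = 0.000289). The lysosomal membrane gene Scarb2 rose by 1.44 ± 0.26 (adjusted p = 0.00381). Cytosolic ribosomal proteins counted 7 of 42 lower (1 without Siglec-F int library 1 or 3, 2 without naive library 2 or 3, 4 without naive library 1 and 12 without Siglec-F int library 2), and proteasome subunits 7 of 25 (0 without Siglec-F int library 1 or 3, 1 without naive library 2 or 3, 2 without naive library 1 and 4 without Siglec-F int library 2). With equal totals those counts were 3 and 1. The pigment marker share fell alongside the metabolic, amino acid and cell cycle genes that were lower, from 1.30, 1.18 and 1.61% to 0.011, 0.0091 and 0.0198%, and its part in them was not tested.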

How the data were processed

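Bulk RNA sequencing of 9 libraries was used, 3 each labelled naive, Siglec-F int and Siglec-F high. Per the submitters' processing notes, TopHat2 2.1.0, HTSeq and DESeq2 1.10.0 were used with the build GRCm38, and the labels give an RNA integrity number above 6.3. The deposited signal values are gene read counts scaled by the authors with 1 factor for each library, as the values themselves show: divided by the smallest step of their column, 100% of the values up to 2000 reads were whole within 0.05 read. The reads so recovered gave the depth, the shares of reads with their 95% Wilson intervals, and the read ratios. A fold against a group without reads was set against a floor of 3 reads over that group. Such intervals and floors reflect counting error alone.

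The table held 54670 entries. Those with a date for a gene name (63, holding 0.219% of the total), exact duplicates (116) and entries that repeat another's name and values (42) were dropped. Of the 54449 left, 99.9% matched GENCODE M21, which gave positions, GC content and transcript length, and 215 share a name or identifier with another. Chi-square per degree of freedom between replicates was 16.6 or more, so no library was a copy of another. Genes with a mean of at least 5 over the 6 libraries compared were tested two-sided on log2(value + 1) by limma 3.58.1 (R 4.3.3), in 1 fit of 9 libraries with a variance trend, at a Benjamini-Hochberg adjusted p of 0.05 over all genes tested. In 5 simulated data sets this test called 79.3% of 459 genes changed 16-fold, 29.4% of 487 changed 4-fold and 28 of 64466 unchanged genes. Each simulated set changed only a small share of the genes, up or down, and left the Siglec-F high libraries like the naive ones. The data hold far more calls, so these rates may not carry over to them. Alternatives were the recovered reads tested with edgeR 4.0.16 and with DESeq2 1.42.0, other scalings, filters, pseudocounts and variance priors, a correction for GC content and length, and leaving out libraries. The edgeR and DESeq2 tests between Siglec-F int and Siglec-F high, the marker shares without 1 library, the list counts under other settings and the eosinophil share without Il1rl1 were added after the data were seen.

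The comparison and the 75 gene lists, 59 for pathways and 16 for cell types, were chosen with earlier results of these data known. Lists are described by counts over tested members, with no test of a list. Named genes were the 15 largest rises and falls, where the higher group averaged 50 or more and the libraries of the groups did not overlap, up to 4 called members for each list and direction, members of lists or roles of at most 12 genes, and ligands, receptors and defining markers. The following were named after their values were seen: Aldh1a2, Alox5, Atf4, Atp5c1, Cdk1, Cdkn1a, Chac1, Col1a1, Col1a2, Fos, Fosl1, Fst, Gapdh, Gbp2, Grem1, Hif1a, Jun, Klf4, Ltc4s, Msx2, Myo5a, Ndrg1, Oasl2, Phgdh, Shmt2, Slc2a1, Stra6, Sucla2, Tcf21, Zeb1 and mt-Co1. Promoters are RefSeq windows of 300 bases in GRCm38.p6, matched by symbol, and motif letters were counted on both strands. Python 3.11.15 with numpy 2.4.6, pandas 2.3.3, scipy 1.17.1 and matplotlib 3.10.9 was used for the rest.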

Additional observations from a re-analysis of the deposited data

How the results depend on the processing

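Of 198 genes called and named, none changed direction under any alternative, 189 kept their call without each of the 6 libraries in turn (Col3a1, Fos, Il1rap, Il34, Inmt, Osm, Pdgfrb, Slc7a11 and Tlr7 did not), and 130 kept it under every alternative. Counts of calls moved more. Required to exceed a fold of 2, 331 genes were called higher and 270 lower. Equal totals gave 929 lower genes, a fit of only the Siglec-F int and naive libraries 2743, and a fit without Siglec-F int library 2 and Siglec-F high library 1 gave 2666. Leaving out 1 library gave 765 to 1360 higher and 667 to 1041 lower genes, with fewer samples in the fit. The other alternatives stayed within 1.5 times of 1636 and 1445, with DESeq2 at 2202 and 1859 and edgeR at 1850 and 1068. The cause of the other shifts was not tested.

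Replicate numbers gave no sign of pairing between the Siglec-F int and the naive libraries. Same-numbered libraries of those groups had correlations of -0.01, 0.06 and 0.06 between their deviations from the group means. Pairing of Siglec-F int with Siglec-F high libraries was not checked. The fit with a replicate block called 1671 genes higher and 1455 lower. The difference in the share of reads of mast cell and basophil markers, in percent of reads, was 0.00113 and ran from -0.000164 without naive library 2 to 0.00196. That of red cell and platelet markers was -0.127 and ran from -0.221 to 0.0208 without naive library 2, and was 0.0124 without Siglec-F int library 2. Medians of 6 to 9 lists changed sign under another scaling. Naive libraries were the shallower, so low genes rest there on few reads, and a gene that was not called may still differ.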
